A study of Rattus norvegicus with 2 samples.

Results

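The acetylcholine receptor and the neuromuscular junction were represented by 10 genes, measured in the adductor, an inner thigh muscle, of rats examined 24 hours after needle pricking. The genes were named by symbol, in a list chosen with earlier results of these data known. They are the muscle receptor subunit genes Chrna1, Chrnb1, Chrnd, Chrne and Chrng, the receptor-clustering genes Agrn, Musk and Rapsn, the acetylcholinesterase gene Ache and the adhesion molecule gene Ncam1. They were matched to probe sets that the platform annotation gives exactly 1 gene symbol. Of the 10, 9 had such a probe set, among 14217 genes in all, and Ache had none and was not analysed here. Signals of 6 reached the floor of 19.8, the median of all signals, on at least 1 array, as did those of 9956 genes in all. Chrne, Chrng and Musk stayed below it on both.

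The animals were male Lewis rats, an inbred strain, with a body weight of 275 g and an age not given in the labels. In the stimulated group the left hindlimb over the adductor muscle was pricked 100 times with a steel needle of 0.14 mm diameter within a square of 10 mm by 10 mm, and muscle was taken 24 hours later. In the control group muscle came from the right hindlimb, which received no treatment. Total RNA of each limb was hybridised to 1 Affymetrix GeneChip array, and how many rats each sample holds is not given in the labels. With 1 array per group nothing below has a replicate check or a test, and "higher" and "lower" describe these 2 arrays.

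At the neuromuscular junction the motor nerve releases acetylcholine onto a dense patch of receptors on the muscle fibre. The receptor is an ion channel built of alpha, beta and delta subunits, with the gamma subunit in fetal and denervated muscle and the epsilon subunit in adult muscle. Agrin from the nerve binds Lrp4 and activates the kinase MuSK, and rapsyn then anchors the receptors beneath the nerve ending. Nuclei under the synapse transcribe the subunit genes in innervated adult fibres, electrical activity holds them down elsewhere, and denervation releases this repression.

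Chrnd was the member that differed. Its value was 7.18-fold higher in the stimulated limb, against 1.57-fold for Chrna1 and a Chrnb1 signal that was 1.09-fold lower. The Chrnd fold rests on a control signal close to background, and it was 4.60-fold on a log2(signal + 16) scale and at least 2.09-fold with the floor at the 75th percentile. Ncam1 was 1.64-fold higher, Rapsn 1.15-fold higher and Agrn 1.28-fold lower. At least a 2-fold difference was thus seen for 1 of the 6 measured members, upwards, where 1.43% of the measured genes as a whole passed that fold upwards and 1.43% downwards. At 1.5-fold the count was 3 higher and 0 lower of 6, where 6.59% of all measured genes were higher and 6.94% lower. The median log2 ratio of the 6 was 0.42, and 0.20 without Chrnd, beside 0.019 for all measured genes.

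The only error available within these arrays came from genes that have several probe sets. For 2174 such genes it gave an SD of 0.31 for the log2 ratio of a single probe set, and 0.36 in the dimmest 724 of them. This SD leaves out any variation between limbs or animals. MAS5 signals depend on each probe set's own affinity, so levels are compared between limbs and not between genes. Of the probe sets, 48.9% reached the floor in the pricked limb and 51.1% in the control limb. All 18 hybridisation spike-in probe sets read lower in the stimulated sample, their median log2 ratio being -0.38. Scaling to them moved the median gene from 0.019 to 0.39, and the direction of each member is given relative to the median gene. Log2 ratios are printed as measured, and list members are counted above and below 0.

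**Figure D1:**
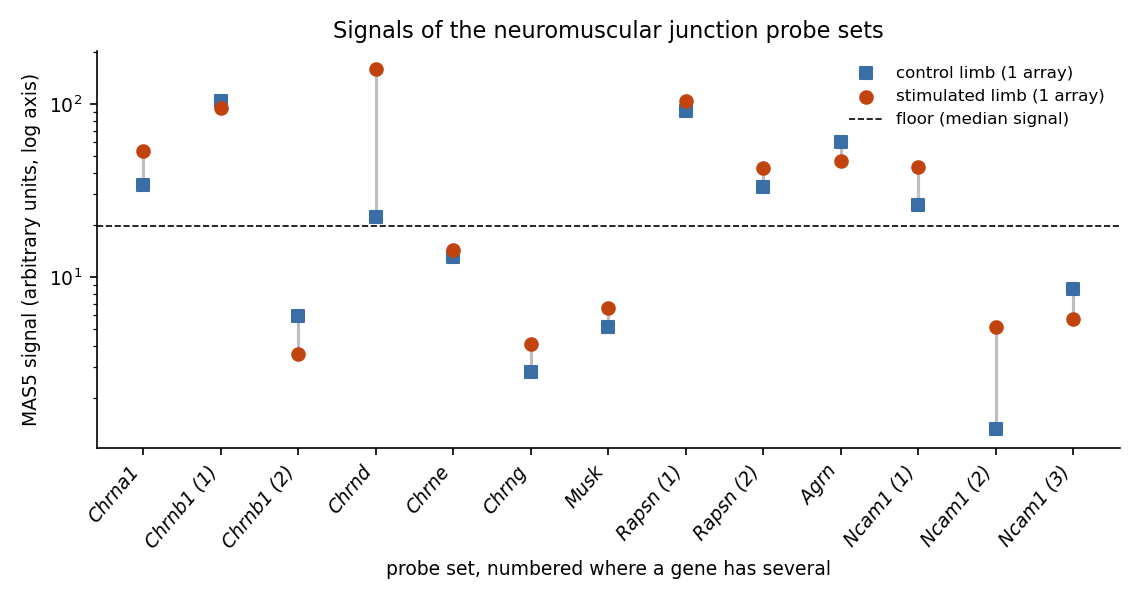
MAS5 signal (arbitrary units, log axis) of each of the 13 member probe sets in the stimulated limb (circles) and the control limb (squares), 1 array each, with the floor of 19.8 as a dashed line. Chrnd runs from just above the floor in the control limb to 159.9 in the stimulated limb, and 6 of the probe sets lie below the floor in both limbs.

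Among the receptor subunits, Chrnd, the delta subunit, read 159.9 in the stimulated limb and 22.3 in the control limb. The control value was close to background, at 1.13 times the floor, and the stimulated value was 8.08 times the floor. The log2 ratio was 2.84, which is 7.93 times the SD of a single probe set among dim genes. That SD comes only from probe sets at or above the floor on both arrays. It does not measure the error of a control signal this close to the floor. Chrnd ranked 6 of 9956 measured genes by log2 ratio. Of the 1452 genes whose control signal lay between 15.7 and 31.5, and so within a factor of the square root of 2 of its own, 43 (2.96%) were at least 2-fold higher. Only 3 of them, Chrnd included, had a log2 ratio at least as large as its own. Choosing genes by a low control signal favours high ratios, and the median log2 ratio in that group was -0.019. Genes with a control signal below the floor of 19.8 entered only where the stimulated signal reached it, so their ratios could not lie below 0. For the rest, the floor limits how low a ratio can fall. The share and the median of that group are thus partly set by the floor. Chrnd had a single probe set, so no second measurement of it exists on these arrays.

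Chrna1 encodes the alpha subunit, which carries the main part of the acetylcholine binding site. Its signals were 53.1 in the stimulated and 33.9 in the control limb, a log2 ratio of 0.65 or 1.81 times the SD among dim genes. A larger log2 ratio was seen for 5.11% of measured genes. Chrnb1, the beta subunit, had signals of 95.2 and 103.8 and a log2 ratio of -0.13, well within the SD of 0.31 over all such genes. Its second probe set was below the floor in both limbs, at 3.58 and 5.90. The log2 ratio of Chrnd exceeded that of Chrnb1 by 2.97 and that of Chrna1 by 2.20, and that of Chrna1 exceeded that of Chrnb1 by 0.77. The SD of such a difference between probe sets of the same gene was 0.44 over all 2174 genes with several probe sets. For dim genes such as Chrna1 and Chrnd the error is larger, with an SD of a single probe set of 0.36 against 0.31. The ratios of the 3 measured subunits were thus unequal by more than the SD of 0.44, least so for Chrna1 and Chrnb1.

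Chrne, the adult epsilon subunit, had signals of 14.4 in the stimulated and 13.01 in the control limb. Chrng, the fetal gamma subunit, had 4.10 and 2.81, at 0.207 and 0.142 times the floor. Both lay below the floor in both limbs, so neither supports a ratio. Neither reached the floor in the stimulated limb, where a signal above it would have been counted as measured. Chrnd and Chrng are neighbours in the RefSeq annotation of the rat genome (GRCr8), with 0 protein-coding genes between them. Chrng has no ratio to set beside that of Chrnd, and the signal levels of their probe sets cannot be compared. A signal below the floor does not show that the transcript was absent.

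The promoters of the measured subunits and of Chrng are shown because the ratios of the measured subunits were unequal and Chrng is the neighbour of Chrnd on the chromosome. Each sequence is the RefSeq entry (GRCr8) from 250 bases before to 50 bases after the annotated start, written 5′ to 3′ on the gene's strand. Capitals mark E-boxes, the CANNTG motif that myogenic factors such as myogenin bind, and the N-box TTCCGG, searched on both strands, known as a synaptic element of the delta and epsilon subunit genes. The entries are Chrnd at chr9:95310066-95310365 (plus strand), Chrng at chr9:95325734-95326033 (plus strand), Chrna1 at chr3:78877304-78877603 (minus strand) and Chrnb1 at chr10:55015058-55015357 (minus strand).
Chrnd: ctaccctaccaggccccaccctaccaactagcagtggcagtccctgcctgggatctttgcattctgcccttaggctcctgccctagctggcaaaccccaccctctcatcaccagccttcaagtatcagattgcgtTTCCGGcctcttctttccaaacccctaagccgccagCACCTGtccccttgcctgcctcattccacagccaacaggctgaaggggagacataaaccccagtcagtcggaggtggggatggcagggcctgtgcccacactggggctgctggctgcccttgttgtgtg
Chrng: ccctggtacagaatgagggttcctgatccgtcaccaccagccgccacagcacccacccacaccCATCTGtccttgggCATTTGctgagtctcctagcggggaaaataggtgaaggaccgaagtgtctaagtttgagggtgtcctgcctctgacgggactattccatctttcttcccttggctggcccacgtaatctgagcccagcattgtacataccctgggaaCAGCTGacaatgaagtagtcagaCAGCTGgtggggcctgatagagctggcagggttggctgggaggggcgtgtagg
Chrna1: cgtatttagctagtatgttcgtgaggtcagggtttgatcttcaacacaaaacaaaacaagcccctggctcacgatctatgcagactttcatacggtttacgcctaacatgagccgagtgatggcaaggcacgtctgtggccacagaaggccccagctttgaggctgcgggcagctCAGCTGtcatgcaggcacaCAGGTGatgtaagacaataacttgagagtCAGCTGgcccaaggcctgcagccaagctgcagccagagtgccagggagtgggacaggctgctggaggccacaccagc
Chrnb1: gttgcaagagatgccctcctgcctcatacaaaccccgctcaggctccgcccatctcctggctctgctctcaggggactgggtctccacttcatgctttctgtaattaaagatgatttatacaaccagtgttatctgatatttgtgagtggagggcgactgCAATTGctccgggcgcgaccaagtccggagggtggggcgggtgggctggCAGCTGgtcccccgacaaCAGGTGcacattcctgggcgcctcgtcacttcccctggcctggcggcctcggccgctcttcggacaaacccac

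The Chrnd window held 1 E-box, CACCTG at -79, and 1 N-box, TTCCGG at -115, counted from the start site to the first base of the motif. Chrna1 held 3 E-boxes, at -75, -56 and -27, and Chrnb1 held 3, at -90, -41 and -23. Chrng held 4, at -187, -173, -26 and -3. Neither Chrna1, Chrnb1 nor Chrng held the N-box letters, while the Chrne entry held them on the opposite strand at -54, beside 1 E-box. Of 33469 RefSeq windows of the same length, 72.1% held CANNTG on either strand, which reads alike on both, and 14.95% held the N-box. At least 2 CANNTG matches were held by 38.6% and at least 3 by 16.6%. The 2 motifs do not overlap in these windows. These matches describe letters and not bound sites.

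**Figure D2:**
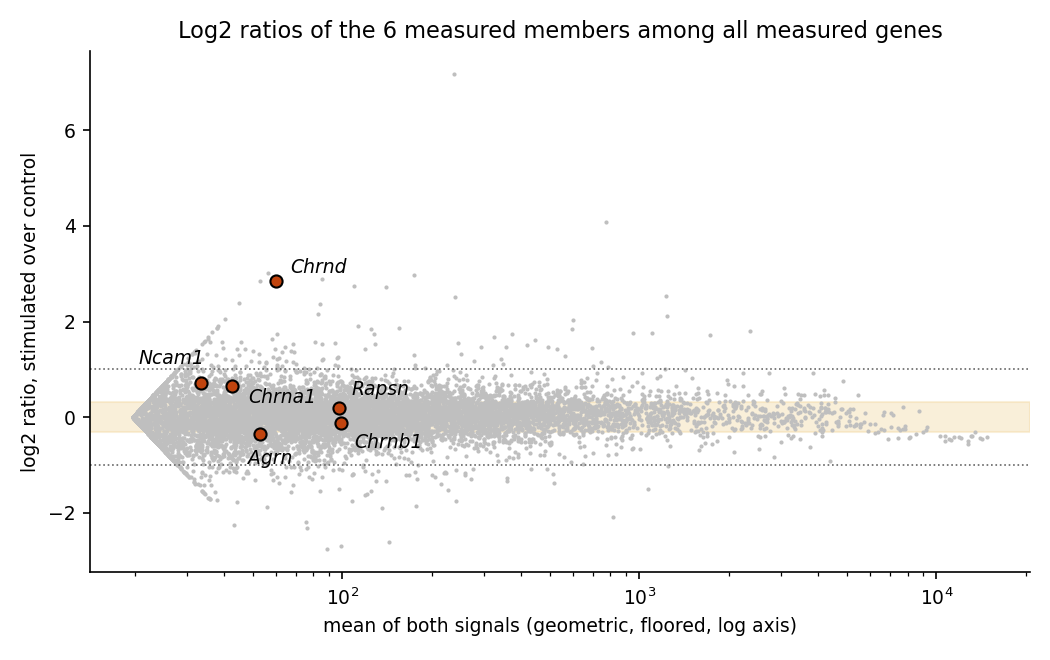
Log2 ratio of stimulated over control (vertical axis) against the geometric mean of both floored signals (horizontal log axis) for the 9956 measured genes in grey and the 6 measured members in red, with the band of 1 SD of a single probe set (0.31) shaded and 2-fold marked by dotted lines. Chrnd stands at 2.84, far above the bulk of genes of like signal, while Chrna1 (0.65) and Ncam1 (0.71) lie inside the 2-fold lines and Rapsn and Chrnb1 inside the band.

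Of the genes that cluster the receptor, Rapsn, the cytoplasmic anchor, had signals of 104.7 in the stimulated and 91.3 in the control limb, a log2 ratio of 0.20. Its second probe set read 42.5 and 33.1, a log2 ratio of 0.36. Both pointed upwards, and the first lay within 1 SD of a single probe set. Agrn, which encodes agrin and is made by motor neurons and also by muscle and other cells, had signals of 46.8 and 60.1 and a log2 ratio of -0.36, 1.01 times the SD among dim genes. Its direction was opposite to that of Rapsn, and 84.8% of measured genes had a higher log2 ratio. Musk, the agrin-activated kinase, lay below the floor at 6.65 and 5.10.

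Ncam1, the neural cell adhesion molecule, is found at the junction of innervated fibres and along the whole fibre after denervation, and also on satellite cells, Schwann cells and nerve. Its brightest probe set had signals of 42.96 in the stimulated and 26.2 in the control limb, a log2 ratio of 0.71 or 1.99 times the SD among dim genes. A larger ratio was seen for 3.91% of measured genes. Both other probe sets lay below the floor, at 5.11 against 1.31 and at 5.68 against 8.55, and pointed in opposite directions. Chrna1, Chrnd, Agrn and Ncam1 were among the 2998 dimmest of the genes at or above the floor on both arrays. In that dim group, 1.77% of genes passed 2-fold upwards and 1.5% downwards, and 8.64% passed 1.5-fold upwards and 9.57% downwards. Ratios of the size of Chrna1 and Ncam1 were thus not rare there.

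Of 26 listed organisers and adaptors of the junction 23 were measured, 9 above 0 and 14 below, with a median log2 ratio of -0.030. At 2-fold 0 were higher and 0 lower, near the share of 1.43% in each direction over all measured genes. Lrp4, the agrin receptor, had signals of 30.8 and 19.7, the control value being just below the floor, and was at least 1.56-fold higher. Gabpb1, a subunit of the factor that binds the N-box, was 1.58-fold lower (43.9 against 69.3). Gabpa, another subunit of that factor, went the other way, 1.22-fold higher (131.9 against 108.5). The Abl kinases Abl2 and Abl1, which act downstream of MuSK, had log2 ratios of -0.62 (35.2 against 54.2) and -0.58 (31.9 against 47.8). Dok7, the adaptor of MuSK chosen here after its values were seen, read 110.3 and 107.2, a log2 ratio of 0.041.

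Among 14 measured genes of the synaptic and general basal lamina, 7 lay above 0 and 7 below. Their median log2 ratio was 0.0088 (-0.010 relative to the median gene). Beyond 2-fold lay 0, near the share of 1.43% in each direction over all measured genes. The laminin chain Lama4 was 1.92-fold higher (111.1 against 57.8) and Lamb1 1.52-fold higher (128.9 against 85.01). Col4a1 (330.1 against 465.9) and Lama5 (34.4 against 47.05) were 1.41-fold and 1.37-fold lower, and the second probe set of each was lower as well. Of the utrophin and dystroglycan complex, which holds the postsynaptic membrane to the cytoskeleton and the matrix, 8 of 14 genes were measured, 2 above 0 and 6 below (1 and 7 about the median gene), with a median of -0.098. Its 4 most different genes were Dtnb (at least 1.36-fold lower, 7.62 against 26.8), Sspn (1.22-fold lower, 389.1 against 475.9), Utrn (at least 1.13-fold lower, 16.5 against 22.3) and Sgcb (1.10-fold lower, 826.2 against 907.0). The probe sets of Dag1, the dystroglycan gene, disagreed in size. Its brightest gave a log2 ratio of -0.034 (446.5 against 457.2), with other probe sets at -0.14 and -1.37.

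Of 20 listed muscle genes known to respond to electrical activity or denervation, 13 were measured, 10 above 0 and 3 below, with a median log2 ratio of 0.49. About the median gene, the split was 8 above and 5 below. At 1.5-fold, 5 were higher and 0 lower, beside 6.59% and 6.94% of all measured genes. At 2-fold, 1 was higher and 0 lower, beside 1.43% of all measured genes in each direction. That gene was Gadd45a, a growth arrest gene raised in denervated muscle, at 2.83-fold (704.7 against 248.8). Myog (myogenin, which binds E-boxes of the subunit genes) was 1.99-fold higher (332.4 against 166.8). The ubiquitin ligase gene Trim63 was 1.81-fold higher (1584 against 874.4), and the cell cycle inhibitor gene Cdkn1a 1.61-fold higher (439.1 against 272.6) while its other probe set gave -0.013. The fifth gene past 1.5-fold upwards was the histone deacetylase gene Hdac5, at 1.59-fold, whose other probe set pointed the opposite way, at -0.69. Runx1 was higher (245.0 against 172.7, log2 ratio 0.50), and its other probe set was higher as well, at 1.002. Myf6 (log2 ratio 0.49) and Hdac4 (0.36) were also higher. Fbxo32, the other muscle ubiquitin ligase of the list, was lower, at 30.9 against 41.3. Ybx3 (log2 ratio -0.23) and Sik1 (-0.18) were lower too, while Myod1 (0.0071) and Kcnn3 (0.016) were near equal in both limbs. Chrng and Musk, which denervation is also known to raise, did not reach the floor in the stimulated limb. Both lay below it in the control limb too, so neither supports a ratio, and denervation was not tested.

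Genes of the motor axon and its terminal went both ways. Of 20 listed, 8 were measured, 4 above 0 and 4 below, with a median log2 ratio of 0.0047 (-0.014 relative to the median gene). The vesicle protein genes Vamp2 (173.4 against 191.3) and Vamp1 (91.3 against 86.7) and the growth cone gene Gap43 (61.02 against 63.8) were well above the floor and near equal in both limbs. The defining cholinergic genes Chat, Slc18a3 and Slc5a7, the vesicle fusion gene Snap25 and the neurofilament genes Nefl, Nefm and Nefh lay below the floor in both limbs. Syp (synaptophysin) was at least 1.81-fold higher (35.7 against 15.5) and Stmn2 1.79-fold higher (41.7 against 23.3). Tubb3 was at least 1.14-fold lower (19.2 against 22.5). The probe sets of Rab3a disagreed, with log2 ratios of 0.57 and -1.16. Of the 18 other nicotinic and muscarinic receptor and cholinesterase genes of the list, 17 had a probe set and 0 reached the floor in either limb, with a highest signal of 18.2.

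**Figure D3:**
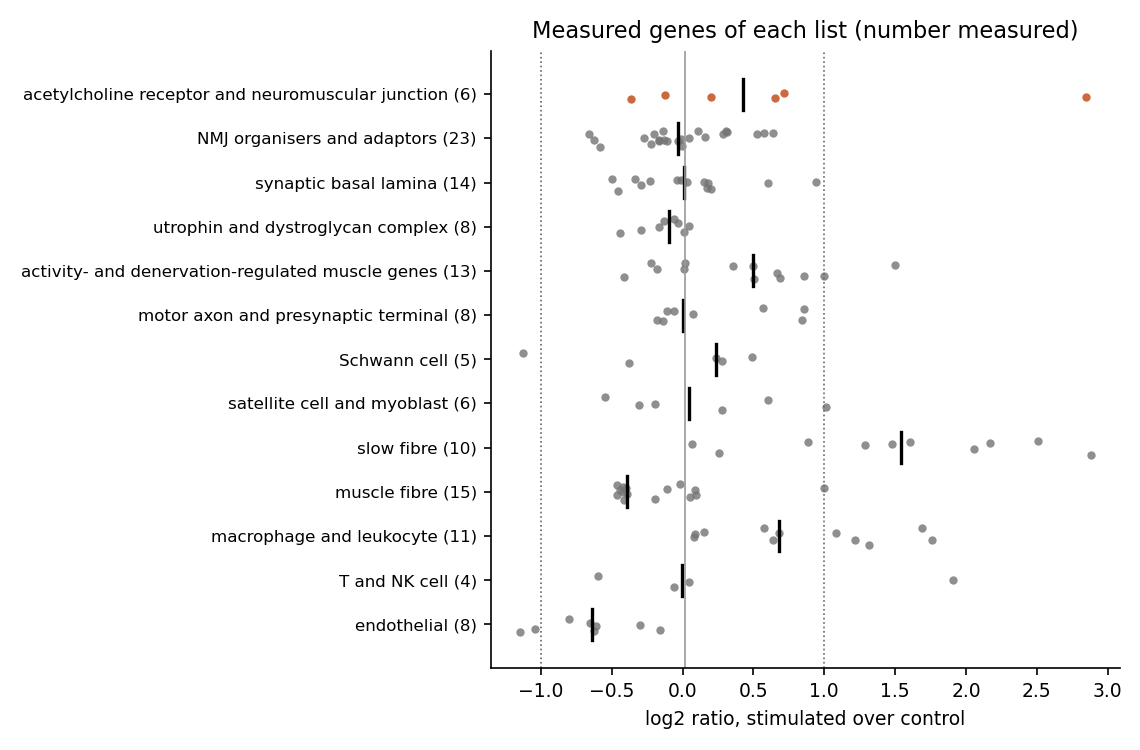
Log2 ratio of stimulated over control of every measured gene of each list (points), with the list's median (black bar), the median gene (grey line) and 2-fold (dotted lines), and the number measured in parentheses. The members (red) spread from -0.36 to 2.84, while the junction's organisers, basal lamina and utrophin complex stay within 2-fold and the slow-fibre genes lie furthest to the right.

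Markers of fibre types and other cells differed between the samples as well. In bulk tissue, more cells of a type and more RNA per cell cannot be told apart. Beside Chrnd, slow-fibre genes were above 0 for 10 of 10 measured genes, with a median log2 ratio of 1.54. At least 2-fold higher were 7 of them, where 1.43% of all measured genes passed that fold upwards. Their summed signal was 3253 in the stimulated limb against 1530 in the control. The slow troponin gene Tnnc1 led that list at 7.38-fold, close to Chrnd. General muscle fibre genes were measured for 15 of 16, with 11 below 0, a median of -0.39 and summed signals of 103478 and 130511. Macrophage and leukocyte markers were above 0 for 11 of 11, with a median of 0.68 and summed signals of 4939 and 2225. Their part in the Chrnd value was not tested.

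Beside Ncam1 stand the markers of the other cells that carry it. Satellite cell and myoblast markers were measured for 6 of 12 genes, 3 above 0 and 3 below, with a median log2 ratio of 0.042. Their summed signals of 7946 and 8853 were mostly those of Des (7316 against 8360), which is also in the muscle fibre list. The sums thus say little about the other markers. The chemokine receptor gene Cxcr4 was 1.52-fold higher, with other probe sets at 0.060 and 1.06, and Sdc4 had a log2 ratio of 0.28. The myoblast cadherin gene Cdh15 was 1.46-fold and Vcam1 1.24-fold lower, and the probe sets of Itga7 disagreed, at 1.01 and 0.022. Schwann cell markers were measured for 5 of 13, with summed signals of 1003 and 986.8. Their median of 0.23 has no settled direction, since it lay below 0 in 5 of 8 other settings and ranged from -0.38 to 0.62. Prx (0.49), Cnp (0.28) and Pmp22 (0.23) lay above 0, though the other probe sets of Cnp (-0.43) and Pmp22 (-0.16) lay below. The myelin gene Mbp was 2.18-fold lower, with other probe sets at -0.37 and -0.74, S100b was 1.30-fold lower, and the defining genes Sox10, Ngfr and Gfap were below the floor in both limbs. T and NK cell markers were measured for 4 of 11, with a median of -0.0076 and summed signals of 172.3 and 134.6. They went opposite ways, with Cd8a at least 3.76-fold higher (74.3 against 13.7, other probe set 1.14) and Cd4 1.51-fold lower. Endothelial markers, listed because vessels also hold basal lamina and agrin, lay below 0 for 8 of 8, with a median of -0.64 and summed signals of 638.1 and 1004. Their part in the Ncam1 and Agrn values was not tested.

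Likeness to Chrnd can be measured over these 2 arrays only as closeness of the log2 ratio. Among the 8995 genes at or above the floor on both arrays it ranked 4. Next above it stood Tnnc1 (2.88), Thbs4 (2.97), a matrix protein, and Gpnmb (4.08), a phagocyte glycoprotein. Next below stood Tnmd (2.74), a tendon cell marker, Fmod (2.72), a collagen-binding proteoglycan, and Csrp3 (2.54), a muscle LIM protein. Of these 6 neighbours none is a gene of the neuromuscular junction lists. The largest of those lists had 23 measured genes, of 9956 in all, so this says nothing particular about Chrnd.

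**Figure D4:**
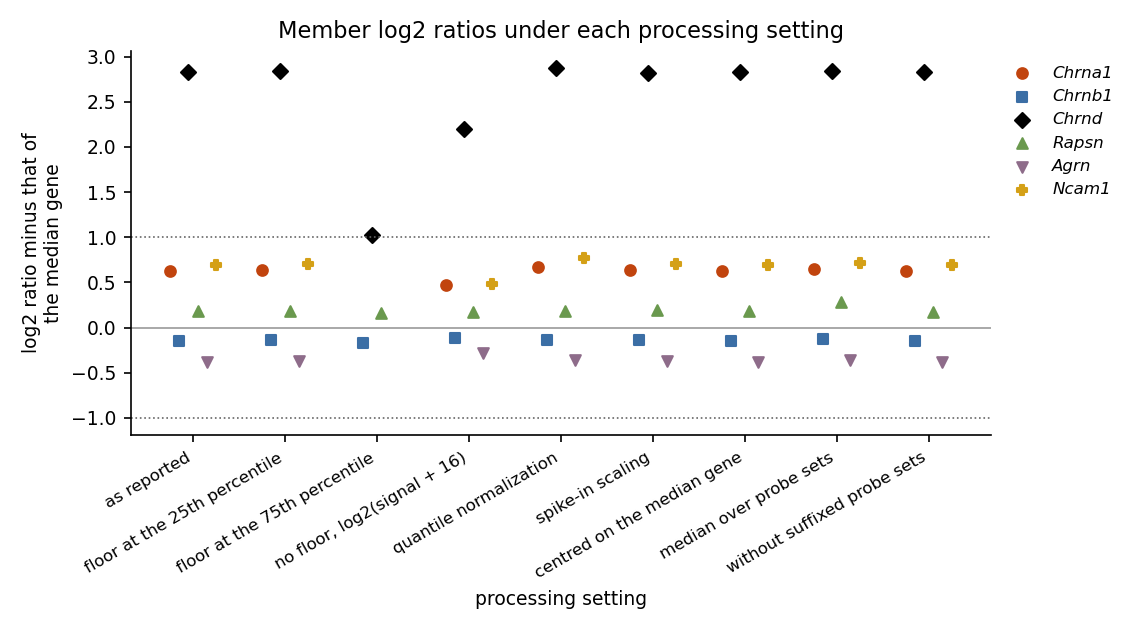
Log2 ratio of each measured member minus that of the median gene (vertical axis) under the reported setting and 8 other processing settings (horizontal axis), 1 value per gene and setting, with 2-fold as dotted lines. Chrnd stays above 2-fold in each, lowest (1.02) with the floor at the 75th percentile, where Chrna1, Agrn and Ncam1 are no longer measured, and the sign of every other plotted member is the same in each setting.

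Relative to the median gene, Chrnd ranged from 1.02 to 2.87 over 8 other processing settings, Chrna1 from 0.47 to 0.67 and Ncam1 from 0.48 to 0.77 over the 7 in which they were measured. Rapsn ranged from 0.16 to 0.28, Chrnb1 from -0.16 to -0.11 and Agrn from -0.38 to -0.28. Taken as they stand, the spike-in scaled values put Agrn at 0.023 and Chrnb1 at 0.26, so their direction held only relative to that gene.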

How the data were processed

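The authors deposited 1 linear MAS5 signal intensity per probe set and array, per the submitters' processing notes. Not given in the sources used here are the software version, the scaling target and a genome build. RNA was column-purified and labelled in a single biotin cycle, per the labels' protocols. The columns held 31099 probe sets, of which 57 were controls. Of the rest, 20826 had 1 gene symbol in the platform annotation, 436 several and 9780 none. Both columns had the same mean after trimming 2% at each end (76.5).

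Signals below the floor (the 50th percentile of non-control signals on both arrays, 19.8) were set to that value, and log2 of the stimulated over the control signal was taken. A gene was measured where 1 array reached the floor, and was represented by its measured probe set of highest mean log2 signal. Where only 1 array reached it, the fold is written as "at least". Counts used a 2-fold difference, also 1.5-fold, with no test, since each group has 1 array, whose number limits the precision.

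Named genes were every member and probe set, up to 4 genes of each of 6 pathway and 7 marker lists with the largest absolute log2 ratio, and the 3 neighbours of Chrnd on each side. Of marker genes, those beside which a result stands are given. Dok7, Fbxo32, Myod1, Hdac5, Ybx3, Sik1, Vamp1, Vamp2, Gap43, Sdc4, Pmp22 and the nerve and Schwann genes below the floor were chosen after their values were seen. The same holds for Gabpa, Dag1, Runx1, Myf6, Hdac4, Kcnn3 and Des. Members and lists were chosen with earlier results of these data known. Ratios and counts were tested on simulated data. The accuracy of ratios near the floor, such as that of Chrnd, was not tested. Python 3.11.15, numpy 2.4.6, pandas 2.3.3 and matplotlib 3.10.9 were used.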

Additional observations from a re-analysis of the deposited data

How the results depend on the processing

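No paired analysis was possible because each group has 1 array. Of the member values, Chrnd fell to 1.06 with the floor at the 75th percentile, where the control signal is raised to a floor of 76.5 and the value is a lower bound, and to 2.20 with log2(signal + 16) and no floor. That setting also counts Chrne, Chrng and Musk and put the median of the members at 0.10. Spike-in scaling, which moves the median gene by 0.39, put Chrnd at 3.21 (a lower bound, its control signal then being below the floor), Ncam1 at 1.10, Chrna1 at 1.03, Rapsn at 0.58, Chrnb1 at 0.26, Agrn at 0.023 and the median of the members at 0.81, and it counted 3 members as at least 2-fold higher. It put the list medians at 0.31 for junction organisers, 0.393 for the basal lamina, 0.32 for the utrophin complex, 0.88 for activity-regulated genes, 0.389 for the motor axon, 0.62 for Schwann cells, 0.43 for satellite cells, 1.06 for macrophages, -0.26 for endothelium and -0.0092 for muscle fibres. Over all genes it counted 535 higher and 44 lower. The floor at the 25th percentile counted 474 higher and 596 lower, that at the 75th 52 and 49, and a fold of 1.5 counted 656 and 691 and 3 members higher. The lower floor gave a Schwann cell median of -0.38, the higher one a slow-fibre median of 1.20, and quantile normalization a muscle fibre median of 0. The other settings run on values were the lower floor, quantile normalization, centring and both other choices of probe set. Under them each of the 6 member values moved by less than the SD of a single probe set. Most of these settings could hardly have moved them. All 6 reached the reported floor on both arrays, so a lower floor leaves their values unchanged. Centring shifts every gene by the same 0.019, and only Rapsn had a second measured probe set. Apart from quantile normalization, the small moves are thus no check of these values. The median without Chrnd was added after the data were seen. Signals near the floor limit Chrnd (control), Ncam1 and Chrna1.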
